A study of Mus musculus with 11 samples.

Results

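The 10 genes of the mouse annotation named small nucleolar RNA host gene (Snhg) 1, 3, 5, 6, 8, 11, 12, 15, 17 and 18 were examined in RNA-seq of neural progenitor cells (NPCs) with and without deletion of *Smg6*. They were taken by their symbols, matched to identifiers in the mouse gene annotation, as 10 of the 53801 gene identifiers with counts. The rule names no measured value, but the 10 were listed with earlier results of these data known, so their counts set beside all genes describe these 10 and not Snhg genes at large. All 10 had enough reads to be tested in all 3 comparisons. In *Smg6*-iKO NPCs, *Snhg12*, *Snhg6*, *Snhg1*, *Snhg8* and *Snhg5* stood at 1.93 to 3.06 times their level in either control group, *Snhg11*, *Snhg15* and *Snhg17* at 1.16 to 1.48 times, and *Snhg3* and *Snhg18* at 0.884 to 1.00 times.

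Small nucleolar RNAs (snoRNAs) guide the chemical modification of ribosomal RNA, box C/D snoRNAs directing 2′-O-methylation and box H/ACA snoRNAs pseudouridylation. In mammals most of them are cut from introns of a host transcript after splicing, and an Snhg gene is a host whose spliced exons carry no long conserved reading frame. The spliced host can be exported and engaged by ribosomes, and many such hosts are known substrates of nonsense-mediated decay (NMD), in which SMG6 is the endonuclease that cuts transcripts on which translation ends far upstream of an exon junction.

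The NPCs came from whole brains of E13.5 embryos of a strain labelled C57BL/6 mixed with 129SV, and all carried the floxed *Smg6* alleles (Smg6 Flox/Flox). Ctr (n = 3) carried the tamoxifen-inducible Cre (RosaCreER tg/+) and received no treatment. Ctr + 4-OHT (n = 4) lacked Cre (RosaCreER +/+) and received 1 µM 4-hydroxytamoxifen (4-OHT) for 3 days, and *Smg6*-iKO (n = 4) carried RosaCreER tg/+ and received the same 4-OHT, with RNA taken on day 6. The 3 days come from the labels, whereas the study's text also speaks of culture with 4-OHT until the RNA was taken, and the sources differ here. The Cre was driven from the broadly active Rosa26 locus, and the share of cells that recombined was not measured here. The cells were expanded in EGF and bFGF, and each library is 1 culture, named as in the labels (SMH_128, SMH_132 and SMH_133 in Ctr, SMH_125, SMH_126, SMH_129 and SMH_131 in Ctr + 4-OHT, SMH_127, SMH_128, SMH_132 and SMH_133 in *Smg6*-iKO). Cultures SMH_128, SMH_132 and SMH_133 therefore occur in both Ctr and *Smg6*-iKO, whereas Ctr + 4-OHT differs from Ctr in both Cre genotype and treatment, which cannot be told apart.

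The 11 libraries held 26418249 to 33756875 counts, and gene-level *Smg6* counts did not separate the groups. *Smg6* ranged from 69.4 to 79.4 CPM (read counts scaled to a common library size) in Ctr, from 66.5 to 72.3 in Ctr + 4-OHT and from 62.3 to 71.9 in *Smg6*-iKO (log2 fold change -0.059 ± 0.066 SE against Ctr + 4-OHT, edgeR adjusted p = 0.703). Paired by culture number against Ctr (replicate block), *Smg6* fell by 0.15 on the log2 scale (SE 0.049, adjusted p = 0.0430), which the unpaired fit did not call (adjusted p = 0.148). The count covers the whole gene and does not read the floxed part alone. *Esr1*, the mouse gene closest in sequence to the receptor part of CreER, had 106 to 149 counts in the Cre-carrying libraries and 1 to 8 in Ctr + 4-OHT. The 8 neural stem cell markers examined (*Nes*, *Sox2*, *Vim* and others) summed to 4308 to 5426 CPM in every library, microglial markers to at most 3.79 CPM and erythroid markers to at most 0.395 CPM. Fibroblast markers were present and uneven, at 298 to 438 CPM in Ctr, 248 to 707 in Ctr + 4-OHT and 229 to 1240 in *Smg6*-iKO, and their part in the results was not tested. In such bulk libraries, fewer cells of a type and less RNA per cell cannot be told apart.

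The start regions of the hosts are shown first, because a run of C and T at the transcription start (a terminal oligopyrimidine tract) is a known feature of ribosomal protein and snoRNA host genes. RefSeq promoter entries (GRCm38) matched 9 of the 10 genes by symbol. Each line gives 45 bases before the annotated start and 30 bases from it, on the gene's strand, with the longest run of C and T that overlaps the stretch from base -5 to base 15 in capitals, and the letters TATA in capitals where they lie between base -45 and base -15.
*Snhg12*, chr4:132308633-132308707, plus strand: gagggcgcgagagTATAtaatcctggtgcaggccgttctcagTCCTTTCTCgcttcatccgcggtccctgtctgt
*Snhg1*, chr19:8723442-8723516, plus strand: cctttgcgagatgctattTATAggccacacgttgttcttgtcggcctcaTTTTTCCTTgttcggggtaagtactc
*Snhg8*, chr3:123508307-123508381, minus strand: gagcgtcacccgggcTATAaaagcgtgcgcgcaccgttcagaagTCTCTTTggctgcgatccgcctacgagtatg
*Snhg5*, chr9:88522868-88522942, minus strand: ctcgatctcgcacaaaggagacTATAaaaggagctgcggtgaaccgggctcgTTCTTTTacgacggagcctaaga
*Snhg15*, chr11:6528731-6528805, minus strand: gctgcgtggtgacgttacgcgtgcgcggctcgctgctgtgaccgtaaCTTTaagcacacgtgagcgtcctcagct
*Snhg11*, chr2:158375668-158375742, plus strand: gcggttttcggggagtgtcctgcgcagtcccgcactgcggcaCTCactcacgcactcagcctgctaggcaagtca
*Snhg17*, chr2:158361493-158361567, minus strand: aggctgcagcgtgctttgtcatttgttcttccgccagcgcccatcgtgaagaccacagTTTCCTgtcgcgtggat
*Snhg18*, chr15:32244633-32244707, minus strand: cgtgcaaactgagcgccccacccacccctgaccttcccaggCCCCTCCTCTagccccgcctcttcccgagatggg
*Snhg3*, chr4:132353657-132353731, minus strand: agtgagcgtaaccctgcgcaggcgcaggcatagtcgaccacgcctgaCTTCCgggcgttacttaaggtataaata

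A run of at least 7 pyrimidines was present in 5 of these 9 windows, against 19.0% of all 27025 promoters in the table. It measured 10 bases in *Snhg18*, 9 in *Snhg12* and *Snhg1* and 7 in *Snhg8* and *Snhg5*, and at most 6 bases in the other genes, with a median of 4 over all promoters. The letters TATA, searched on the gene's strand, were present in 4 of 9 windows (*Snhg12*, *Snhg1*, *Snhg8* and *Snhg5*), against 7.03% of all promoters. These 4 genes are among those that rose, and *Snhg18*, with the longest run, did not. The windows and motifs were chosen with the sequences in view, RefSeq starts may lie some bases from the start used in NPCs, and a match describes letters only.

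The second sequence feature is the first reading frame of the spliced host, since a stop codon far upstream of an exon junction is the arrangement that NMD reads. For each gene the GENCODE M21 transcript of the basic set with the most exons was read from its first base to the first stop codon in frame with its first ATG, with the ATG and the stop in capitals. The lines below give the 5 genes with the largest rises.
*Snhg12*: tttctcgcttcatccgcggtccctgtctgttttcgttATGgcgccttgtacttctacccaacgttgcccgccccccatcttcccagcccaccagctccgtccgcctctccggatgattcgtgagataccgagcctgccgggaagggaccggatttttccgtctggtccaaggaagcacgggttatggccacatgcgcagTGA
*Snhg6*: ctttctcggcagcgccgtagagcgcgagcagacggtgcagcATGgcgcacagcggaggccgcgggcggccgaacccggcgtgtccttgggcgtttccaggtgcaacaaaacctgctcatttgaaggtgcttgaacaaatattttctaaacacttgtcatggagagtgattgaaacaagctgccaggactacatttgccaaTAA
*Snhg1*: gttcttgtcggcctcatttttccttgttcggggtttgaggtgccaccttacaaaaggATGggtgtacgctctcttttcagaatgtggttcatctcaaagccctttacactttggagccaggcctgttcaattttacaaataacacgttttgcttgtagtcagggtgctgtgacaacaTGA
*Snhg8*: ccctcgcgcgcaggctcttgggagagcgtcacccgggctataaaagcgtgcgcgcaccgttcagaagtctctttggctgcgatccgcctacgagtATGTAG
*Snhg5*: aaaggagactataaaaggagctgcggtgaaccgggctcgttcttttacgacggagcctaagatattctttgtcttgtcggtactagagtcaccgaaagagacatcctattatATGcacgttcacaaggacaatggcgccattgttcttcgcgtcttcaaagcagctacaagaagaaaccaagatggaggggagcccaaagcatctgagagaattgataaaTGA

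In these transcripts the first reading frame held 54 codons in *Snhg12*, 53 in *Snhg6*, 40 in *Snhg1*, 36 in *Snhg5* and 1 in *Snhg8*, whose ATG is followed directly by TAG. The stop was followed, more than 50 bases downstream, by 5 exon junctions in *Snhg1*, 3 in *Snhg12*, 2 in *Snhg5* and *Snhg8*, and 1 in *Snhg6*. The genes with smaller or no rises had the same arrangement, with 10 codons in *Snhg3*, 23 in *Snhg11*, 29 in *Snhg18*, 35 in *Snhg15* and 96 in *Snhg17*, and at least 1 such junction each. In the 1 transcript read per gene it was present in 10 of the 10 Snhg genes, and also in 75.2% of the 998 other spliced long non-coding genes tested. In these transcripts it did not set the rising genes apart from the others. Among all spliced transcripts it was in 9 of 10 of *Snhg12*, 4 of 5 of *Snhg6*, 15 of 18 of *Snhg1*, 2 of 2 of *Snhg8* and 5 of 6 of *Snhg5*. It was in 4 of 5 of *Snhg11*, 3 of 4 of *Snhg15*, 6 of 8 of *Snhg17*, 2 of 5 of *Snhg3* and 1 of 1 of *Snhg18*. For *Snhg3* the transcript read here begins inside the snoRNA *Snora73a*, so its first frame may not be that of the spliced host.

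*Smg6*-iKO was first compared with Ctr + 4-OHT, which received the same 4-OHT. Of the 10 Snhg genes, 5 rose and 0 fell (edgeR quasi-likelihood test, Benjamini-Hochberg adjusted p under 0.05 over all genes), where 1.17% of the 17558 genes tested changed, 0.757% rising and 0.416% falling. The median log2 fold change of the 10 was 0.78, against 0.01 for all genes. Among the 10 genes, 6 had all *Smg6*-iKO values above all Ctr + 4-OHT values, a separation seen in 5.03% of all genes tested.

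**Figure D1:**
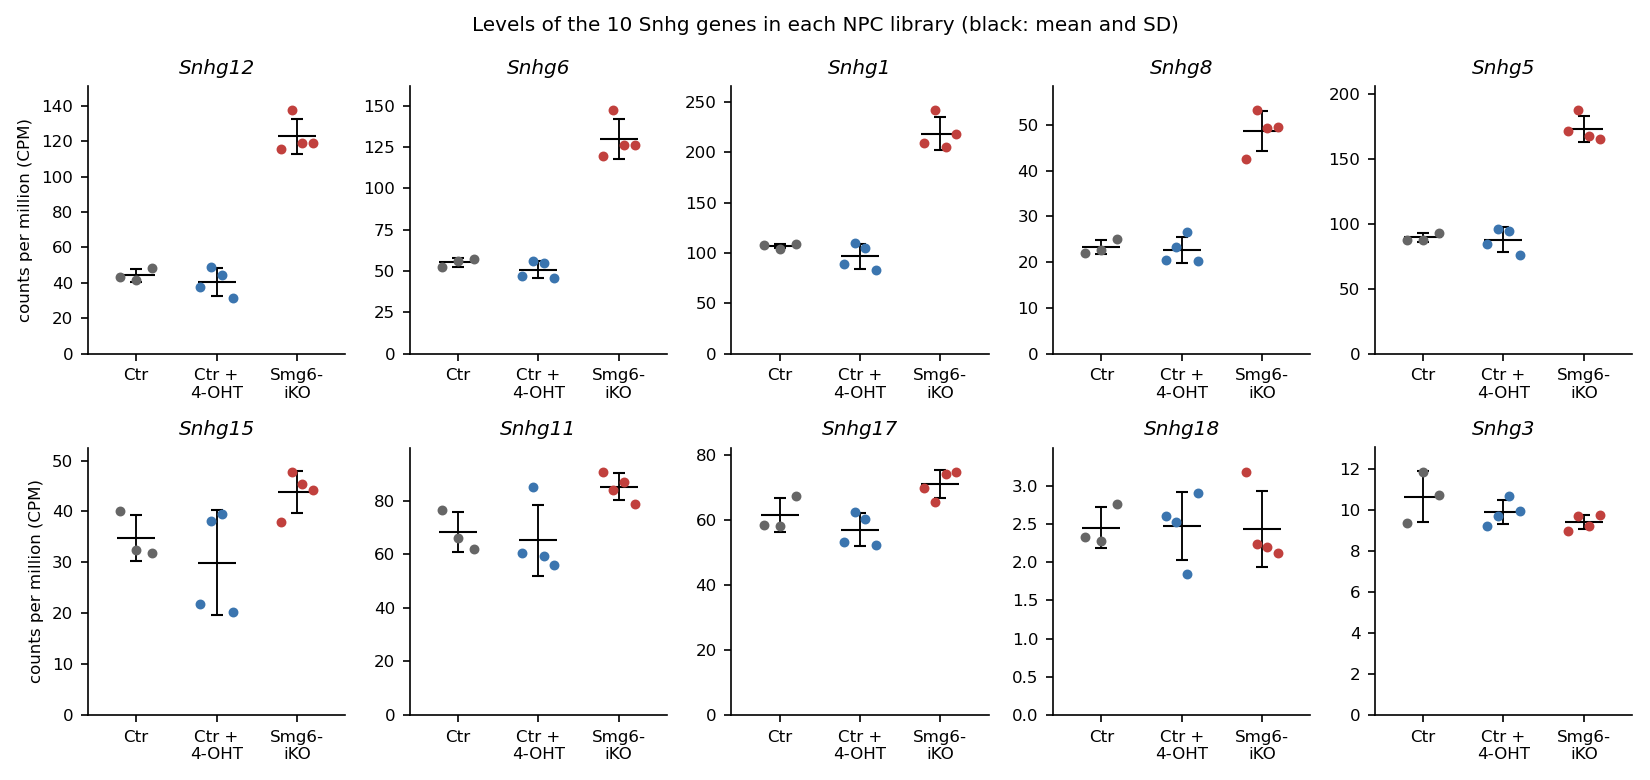
Level of each Snhg gene in CPM (vertical axis, each panel from 0) in every library of Ctr (grey, n = 3), Ctr + 4-OHT (blue, n = 4) and *Smg6*-iKO (red, n = 4), with black lines for the mean and SD. In the upper row (*Snhg12*, *Snhg6*, *Snhg1*, *Snhg8*, *Snhg5*) the 4 *Smg6*-iKO points lie above all control points, while in the lower row they overlap at least 1 control group.

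*Snhg12* (ENSMUSG00000086290, chr4:132308678-132311024, plus strand), host of *Snora16a*, *Snora44*, *Snora61* and *Snord99*, rose most. It measured 43.3, 41.3 and 48.3 CPM in Ctr cultures SMH_128, SMH_132 and SMH_133, then 37.4, 48.9, 44.2 and 31.2 CPM in Ctr + 4-OHT cultures SMH_125, SMH_126, SMH_129 and SMH_131, and 116, 138, 119 and 119 CPM in *Smg6*-iKO cultures SMH_127, SMH_128, SMH_132 and SMH_133. The groups did not overlap, since the lowest *Smg6*-iKO library was above the highest control. Against Ctr + 4-OHT its log2 fold change was 1.61 ± 0.13 (SE), a 3.06-fold rise (edgeR adjusted p = 0.000223), and it was 1.47 ± 0.079 against Ctr (adjusted p = 6.4e-06).

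*Snhg6* (ENSMUSG00000098234, chr1:9941959-9944118, minus strand) hosts a single box C/D snoRNA, *Snord87*. Its levels in the same order were 52.3, 56.2 and 57.1 CPM in Ctr, 46.7, 55.9, 54.9 and 45.9 CPM in Ctr + 4-OHT, and 119.6, 147.2, 125.985 and 126.3 CPM in *Smg6*-iKO. All 4 *Smg6*-iKO libraries were above all 7 controls, with culture SMH_128 the highest. *Snhg6* rose by 1.36 ± 0.088 on the log2 scale against Ctr + 4-OHT (edgeR adjusted p = 7.1e-05) and by 1.23 ± 0.076 against Ctr (adjusted p = 1.5e-05).

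*Snhg1* (ENSMUSG00000108414, chr19:8723475-8726443, plus strand), with 8 annotated snoRNA genes in its span the richest host of the 10, was also the most abundant in CPM. It measured 108, 104 and 109 CPM in Ctr, 89.4, 109.7, 105 and 83.5 CPM in Ctr + 4-OHT, and 209, 242, 205 and 218 CPM in *Smg6*-iKO. Again no *Smg6*-iKO library overlapped a control. *Snhg1* rose by 1.18 ± 0.092 on the log2 scale against Ctr + 4-OHT (edgeR adjusted p = 0.000223) and by 1.03 ± 0.066 against Ctr (adjusted p = 1.6e-05).

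*Snhg8* (ENSMUSG00000104960, chr3:123507552-123508404, minus strand), the shortest gene of the group and host of the H/ACA snoRNA *Snora24*, measured 22.1, 22.7 and 25.0 CPM in Ctr. It measured 20.6, 23.3, 26.6 and 20.3 CPM in Ctr + 4-OHT and 42.7, 53.2, 49.4 and 49.5 CPM in *Smg6*-iKO. The *Smg6*-iKO libraries were all higher than the controls, culture SMH_127 being the lowest of them. *Snhg8* had a log2 fold change of 1.11 ± 0.10 relative to Ctr + 4-OHT (edgeR adjusted p = 0.00057) and of 1.07 ± 0.082 relative to Ctr (adjusted p = 7.9e-05).

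*Snhg5* (ENSMUSG00000097195, chr9:88521050-88522929, minus strand), host of the C/D snoRNAs *Snord50a* and *Snord50b*, measured 87.7, 87.4 and 93.3 CPM in Ctr. The Ctr + 4-OHT values were 84.4, 96.1, 94.6 and 75.9 CPM and the *Smg6*-iKO values 171, 187, 168 and 165 CPM, again without overlap. *Snhg5* rose by 0.99 ± 0.079 on the log2 scale against Ctr + 4-OHT (edgeR adjusted p = 0.000262) and by 0.95 ± 0.060 against Ctr (adjusted p = 1.6e-05), the smallest rise of these 5 genes. In the order of all genes tested by log2 fold change against Ctr + 4-OHT, the 5 held places 23 (*Snhg12*), 38 (*Snhg6*), 54 (*Snhg1*), 67 (*Snhg8*) and 96 (*Snhg5*) of 17558.

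*Snhg11*, *Snhg15* and *Snhg17* had fold changes above 1 that did not pass the test against Ctr + 4-OHT. *Snhg15* (ENSMUSG00000085156, chr11:6525591-6528760, minus strand), host of the H/ACA snoRNA *Snora9*, measured 40.1, 32.5 and 31.9 CPM in Ctr and 37.9, 47.8, 45.3 and 44.2 CPM in *Smg6*-iKO. In Ctr + 4-OHT it split into cultures SMH_126 and SMH_129, at 38.0 and 39.5 CPM, and cultures SMH_125 and SMH_131, at 21.8 and 20.2 CPM, the widest relative spread of the 10 genes in any group (coefficient of variation 34.5%). *Smg6*-iKO culture SMH_127 overlapped both control groups. Relative to Ctr + 4-OHT its log2 fold change was 0.56 ± 0.21 (edgeR adjusted p = 0.210).

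*Snhg11* (ENSMUSG00000044349, chr2:158375638-158386145, plus strand), annotated as protein-coding in GENCODE M21 and known for its enrichment in neurons, measured 76.6, 66.0 and 62.1 CPM in Ctr. It measured 60.3, 85.1, 59.5 and 55.8 CPM in Ctr + 4-OHT and 90.8, 84.0, 87.1 and 78.7 CPM in *Smg6*-iKO. Culture SMH_126 of Ctr + 4-OHT lay within the *Smg6*-iKO range, while all Ctr values lay below it. Relative to Ctr + 4-OHT its log2 fold change was 0.40 ± 0.12 (edgeR adjusted p = 0.141) and, without culture SMH_126, 0.55 (adjusted p = 0.0121). The 6 neuronal markers examined (*Tubb3*, *Dcx*, *Map2* and others) summed to 1630 to 1780 CPM in Ctr, 1488 to 2447 in Ctr + 4-OHT and 1885 to 2141 in *Smg6*-iKO, the latter overlapping with Ctr + 4-OHT and above all Ctr libraries. Of the 6, 0 passed the test against Ctr + 4-OHT or against Ctr, where 1.17% and 9.25% of all genes did. With cultures paired against Ctr (replicate block), 4 of 6 rose, where 10.3% of all genes did, *Tubb3* (log2 fold change 0.37 ± 0.058, edgeR adjusted p = 0.000222), *Syt1* (0.30 ± 0.054, adjusted p = 0.000916), *Snap25* (0.22 ± 0.056, adjusted p = 0.0102) and *Dcx* (0.17 ± 0.050, adjusted p = 0.0220). *Map2* (0.076 ± 0.047, edgeR adjusted p = 0.274) and *Rbfox3* (0.15 ± 0.093, adjusted p = 0.295) did not pass in that fit. The median log2 fold change of the 6 markers was 0.043 against Ctr + 4-OHT, where *Snhg11* was at 0.40. Between the control groups the median was 0.24, where *Snhg11* was at -0.067. The part of neuronal markers in the *Snhg11* values was not tested.

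*Snhg17* (ENSMUSG00000085385, chr2:158353700-158361580, minus strand), a neighbour of *Snhg11* on chromosome 2, measured 58.6, 58.3 and 67.5 CPM in Ctr. It measured 53.3, 62.5, 60.3 and 52.2 CPM in Ctr + 4-OHT and 70.0, 65.6, 74.2 and 74.9 CPM in *Smg6*-iKO. Every *Smg6*-iKO library lay above every Ctr + 4-OHT library, but culture SMH_128 lay below the highest Ctr value. Its log2 fold change relative to Ctr + 4-OHT was 0.33 ± 0.076 (edgeR adjusted p = 0.0722). The DESeq2 Wald test on the same 2 groups gave 0.32 (adjusted p = 0.00739) and so called it higher.

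*Snhg3* and *Snhg18* stayed near a fold of 1. *Snhg3* (ENSMUSG00000085241, chr4:132348014-132353686, minus strand), host of the H/ACA snoRNAs *Snora73a* and *Snora73b*, measured 9.36, 11.9 and 10.7 CPM in Ctr, 9.23, 9.73, 10.7 and 9.93 CPM in Ctr + 4-OHT, and 8.98, 9.68, 9.24 and 9.75 CPM in *Smg6*-iKO. All 3 groups overlapped, with a log2 fold change of -0.061 ± 0.082 relative to Ctr + 4-OHT (edgeR adjusted p = 0.760). Of its 986 exonic bases, 135 (13.7%) are also exon of the overlapping gene *Rcc1*, and reads there were counted for neither gene.

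*Snhg18* (ENSMUSG00000096956, chr15:32240565-32244662, minus strand), host of the C/D snoRNA *Snord123*, was the lowest of the 10, with 57 to 109 counts per library. It measured 2.32, 2.27 and 2.76 CPM in Ctr, 2.61, 2.53, 1.84 and 2.90 CPM in Ctr + 4-OHT, and 3.18, 2.24, 2.19 and 2.12 CPM in *Smg6*-iKO. The groups overlapped throughout and the log2 fold change relative to Ctr + 4-OHT was -0.0018 ± 0.19 (edgeR adjusted p = 0.998). With this SE, a change of the size of that in *Snhg17* (0.33) was not detectable at this depth.

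*Smg6*-iKO was next compared with Ctr, which carried the same Cre genotype but received no 4-OHT. Of the 10 genes, 6 rose and 0 fell, where 9.25% of the 17974 genes tested changed, 4.27% rising and 4.98% falling. Again 6 had all *Smg6*-iKO values above all Ctr values, against 11.4% of all genes. The sixth gene was *Snhg11* (log2 fold change 0.32 ± 0.079, edgeR adjusted p = 0.0325), and this call was lost when 1 library was left out in 5 of 7 cases (Ctr SMH_132 or SMH_133, *Smg6*-iKO SMH_127, SMH_132 or SMH_133), with an adjusted p of up to 0.133. *Snhg15* (0.33 ± 0.097, adjusted p = 0.0566) and *Snhg17* (0.21 ± 0.073, adjusted p = 0.0915) did not pass the test, nor did *Snhg3* (-0.18 ± 0.10, adjusted p = 0.284) and *Snhg18* (-0.00034 ± 0.19, adjusted p = 1.00).

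With the culture number as a replicate block, the edgeR fit paired Ctr and *Smg6*-iKO and 8 of 10 rose, where 10.3% of all genes tested rose and 11.2% fell. The added genes were *Snhg15* (log2 fold change 0.40 ± 0.062, adjusted p = 0.000199) and *Snhg17* (0.22 ± 0.054, adjusted p = 0.00764), and *Snhg11* kept its call (0.29 ± 0.056, adjusted p = 0.00123). *Snhg3* (-0.15 ± 0.097, adjusted p = 0.286) and *Snhg18* (-0.16 ± 0.16, adjusted p = 0.516) still did not pass. Within the shared cultures, the ratio of *Smg6*-iKO to Ctr for *Snhg12* was 3.18 in culture SMH_128, 2.88 in SMH_132 and 2.46 in SMH_133, and for *Snhg6* it was 2.81, 2.24 and 2.21. For *Snhg15* the ratios were 1.19, 1.40 and 1.39, and for *Snhg11* 1.097, 1.32 and 1.27. All 3 cultures were thus higher in *Smg6*-iKO for 8 of the 10 genes, as they were for 25.8% of all genes tested, culture SMH_128 having the highest ratio of the 3 in the 5 strongest risers and the lowest in *Snhg15* and *Snhg11*.

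**Figure D2:**
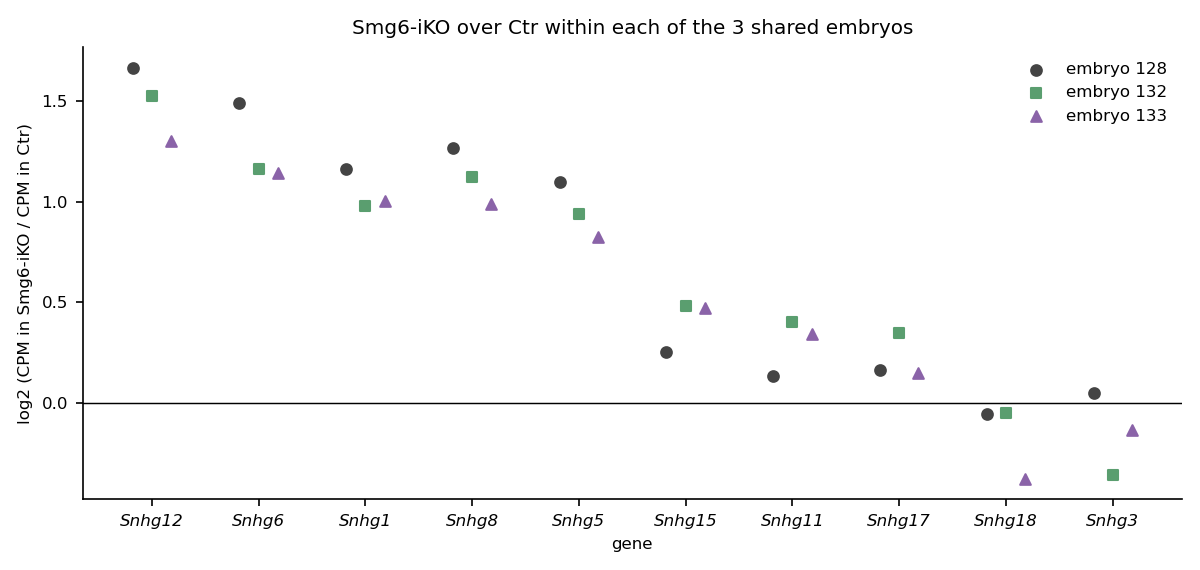
The log2 ratio of CPM in *Smg6*-iKO to CPM in Ctr (vertical axis) for each Snhg gene (horizontal axis) within the 3 cultures found in both groups, by marker shape. All 3 points lie above 0 for the 8 genes from *Snhg12* to *Snhg17*, and *Snhg3* has culture SMH_128 above and the other 2 below 0.

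Ctr + 4-OHT was compared with Ctr as the background of treatment and Cre genotype together. Of the 10 genes 0 passed the edgeR test, and 0 had an unadjusted p under 0.05, where 0.221% of the 17665 genes tested changed, 0.0396% rising and 0.181% falling. All 10 overlapped between these groups, and 0 of 10 was called by DESeq2 on the same groups. The log2 fold changes lay between -0.22 ± 0.23 (*Snhg15*) and 0.011 ± 0.19 (*Snhg18*), with a median of -0.11 against 0.0045 for all genes and 9 of 10 below 0. The shares of all genes with such an overlap, sign or unadjusted p were not computed, so these counts do not set the 10 apart. The values for *Snhg12* (-0.13 ± 0.14), *Snhg6* (-0.12 ± 0.089), *Snhg1* (-0.14 ± 0.093), *Snhg17* (-0.11 ± 0.088) and *Snhg3* (-0.11 ± 0.11) did not pass the test either. Both comparisons with *Smg6*-iKO share its 4 libraries, and both comparisons with Ctr share its 3.

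**Figure D3:**
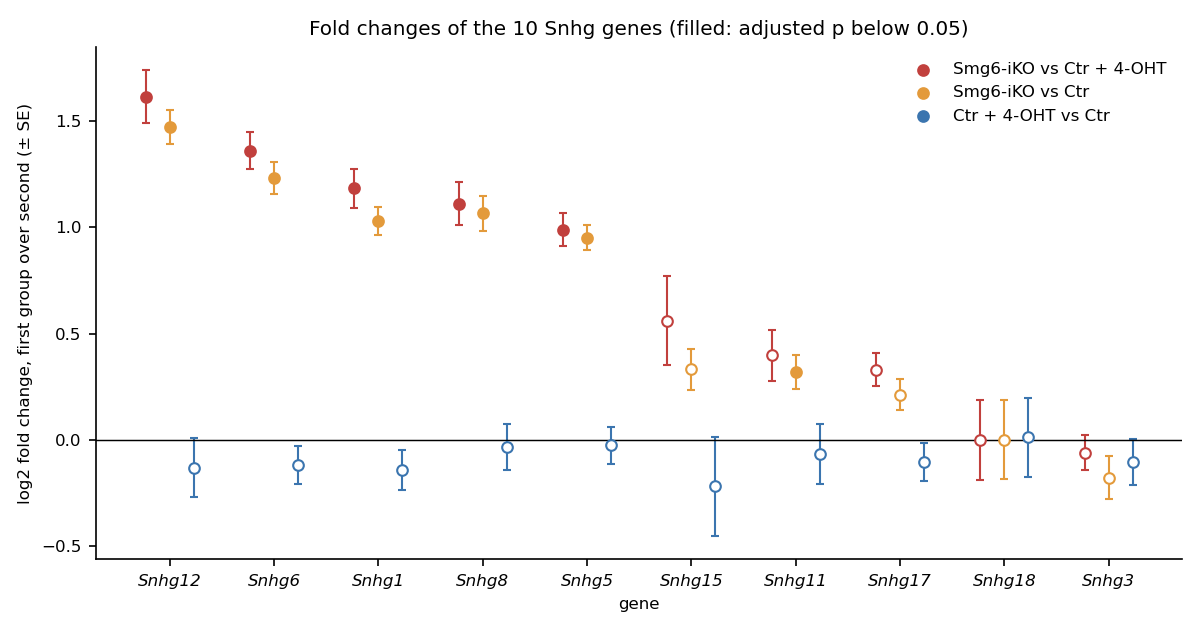
The log2 fold change with its SE (vertical axis) of each Snhg gene (horizontal axis) in *Smg6*-iKO against Ctr + 4-OHT (red), *Smg6*-iKO against Ctr (orange) and Ctr + 4-OHT against Ctr (blue), with filled points for an adjusted p below 0.05 and open points otherwise. *Snhg12*, *Snhg6*, *Snhg1*, *Snhg8* and *Snhg5* lie between 0.95 and 1.61 in both comparisons with *Smg6*-iKO, and all blue points lie near 0.

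The control libraries also varied together. In Ctr + 4-OHT, cultures SMH_125 and SMH_131 were both below cultures SMH_126 and SMH_129 in 7 of the 10 genes, a pattern found in 27.4% of all genes tested. In *Smg6*-iKO, culture SMH_128 was the highest in 6 of the 10, as it was in 31.9% of all genes. For *Snhg12*, *Snhg6*, *Snhg1*, *Snhg8* and *Snhg5* this spread was far smaller than the rise, with a coefficient of variation of at most 19.2% in any group.

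The order of the genes was compared per kilobase of exon (CPM per kb). In Ctr the highest was *Snhg5* at 51.7 ± 1.91 (SD, n = 3), followed by *Snhg6* at 48.2 ± 2.22 and *Snhg1* at 36.0 ± 0.788. *Snhg8* at 27.3 ± 1.79, *Snhg12* at 27.2 ± 2.23 and *Snhg15* at 25.6 ± 3.36 came next and overlapped with their neighbours. *Snhg3* at 10.8 ± 1.27, *Snhg17* at 8.72 ± 0.741 and *Snhg11* at 8.01 ± 0.881 also overlapped in turn, and *Snhg18* at 1.65 ± 0.179 stood below all others. The order was the same in Ctr + 4-OHT, where *Snhg5* and *Snhg6* overlapped (50.7 ± 5.47 and 44.4 ± 4.63, n = 4).

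In *Smg6*-iKO *Snhg6* led at 113 ± 10.5 CPM per kb (SD, n = 4), overlapping with *Snhg5* at 99.98 ± 5.74. *Snhg12*, at 75.6 ± 6.09, overlapped with *Snhg1* at 73.6 ± 5.51, above which it had not stood in either control group. *Snhg8* at 57.1 ± 5.17 and *Snhg15* at 32.2 ± 3.08, which had overlapped in both control groups, were now separate. *Snhg17*, *Snhg11* and *Snhg3* overlapped at 10.1 ± 0.608, 9.99 ± 0.598 and 9.54 ± 0.370. Reads on exonic bases shared with a snoRNA or another gene were not counted, and these make up 20.9% of the exonic bases of *Snhg1*, 20.5% of *Snhg12*, 16.1% of *Snhg3* (snoRNAs alone) and 0% of *Snhg6* and *Snhg18*. Per kilobase of unshared exon, an alternative chosen after seeing the data, *Snhg12* was at 34.3 ± 2.81 and *Snhg8* at 32.2 ± 2.11 in Ctr, in the opposite order but still overlapping. *Snhg3* was then at 13.6 ± 0.527 in *Smg6*-iKO, above *Snhg17* at 10.7 ± 0.642 and *Snhg11* at 10.2 ± 0.607, so that its place relative to them depends on the length used. *Snhg12* was at 95.0 ± 7.66 in *Smg6*-iKO, again overlapping with *Snhg1* at 93.1 ± 6.97.

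The annotation sets how far these counts read spliced host RNA. Annotated exons cover 100% of the span of *Snhg1* and *Snhg8*, 92.02% of *Snhg5*, 89.5% of *Snhg17* and 81.1% of *Snhg11*, because transcripts with retained introns are annotated there (14 of 18 transcripts of *Snhg1*). For these genes reads of unspliced RNA fall under exons and were counted. The share is 69.3% in *Snhg12*, 53.1% in *Snhg6*, 42.9% in *Snhg15*, 36.3% in *Snhg18* and 17.4% in *Snhg3*. Both the genes called against Ctr + 4-OHT (53.1% to 100% cover) and those not called (17.4% to 89.5%) covered a wide range. The part of unspliced RNA in the rises was not tested.

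The snoRNAs inside the hosts were mostly out of reach of these files. The spans of the 10 genes hold 26 annotated snoRNA genes on the same strand, of which 19 lie wholly under host exons, and these 19 had 0 counts in all 11 libraries because reads that overlap more than 1 gene were not counted. Their counts of 0 therefore say nothing of their level. Only *Snord87* in *Snhg6* and *Snora73b* in *Snhg3* had at least 10 counts in every library. Their sequences are shown because their counts could be set beside those of the host (GRCm38, minus strand). Reads of unspliced host RNA that fall on these snoRNA genes were counted for them too, so the counts do not measure the mature snoRNA alone. Capitals mark the box C (TGATGA) and box D (CTGA) letters of *Snord87* and the ACA near the 3′ end of *Snora73b*.
*Snord87*, chr1:9942463-9942549: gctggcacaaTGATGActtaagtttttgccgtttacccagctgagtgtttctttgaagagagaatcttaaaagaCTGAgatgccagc
*Snora73b*, chr4:132352322-132352526: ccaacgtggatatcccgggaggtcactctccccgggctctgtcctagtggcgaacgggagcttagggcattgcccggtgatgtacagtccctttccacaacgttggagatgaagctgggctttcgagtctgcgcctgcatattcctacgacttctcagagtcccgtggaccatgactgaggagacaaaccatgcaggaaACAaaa

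*Snord87* had 34, 39 and 35 counts in Ctr, 29, 36, 34 and 37 in Ctr + 4-OHT, and 38, 29, 33 and 33 in *Smg6*-iKO. The groups overlapped while those of its host did not, and the log2 fold change of *Snord87* was -0.13 ± 0.16 relative to Ctr + 4-OHT (edgeR adjusted p = 0.754) and -0.19 ± 0.17 against Ctr (adjusted p = 0.543). With so few counts a moderate change would not have been detectable. Of the 26 snoRNA genes inside the 10 genes only these 2 were tested, and 0 of the 2 were called by the unpaired edgeR test, with 1.17%, 9.25% and 0.221% of all genes called in the 3 comparisons, and 0 of 2 had an unadjusted p under 0.05.

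The ratio of *Snhg6* to *Snord87* counts was 44.4, 45.1 and 42.7 in Ctr, 43.2, 40.6, 49.97 and 35.1 in Ctr + 4-OHT, and 108, 138, 106 and 121 in *Smg6*-iKO. Every *Smg6*-iKO library was above every control. The mean log2 ratio was 6.88 ± 0.18 (SD, n = 4) in *Smg6*-iKO and 5.39 ± 0.21 in Ctr + 4-OHT, a difference of 1.49 (two-sided exact permutation test, p = 0.0286, the smallest this design allows). Against Ctr (5.46 ± 0.041, n = 3) the difference was 1.42 (exact p = 0.0286), in a test that did not use the pairing of the shared cultures. Adjusted over the 73 snoRNA hosts with enough counts, these p-values were 0.348 and 0.417 and did not pass, and with 0.0286 as the smallest p, a single host cannot pass an adjustment over 73. Ctr + 4-OHT and Ctr differed by -0.072 (exact p = 0.657).

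**Figure D4:**
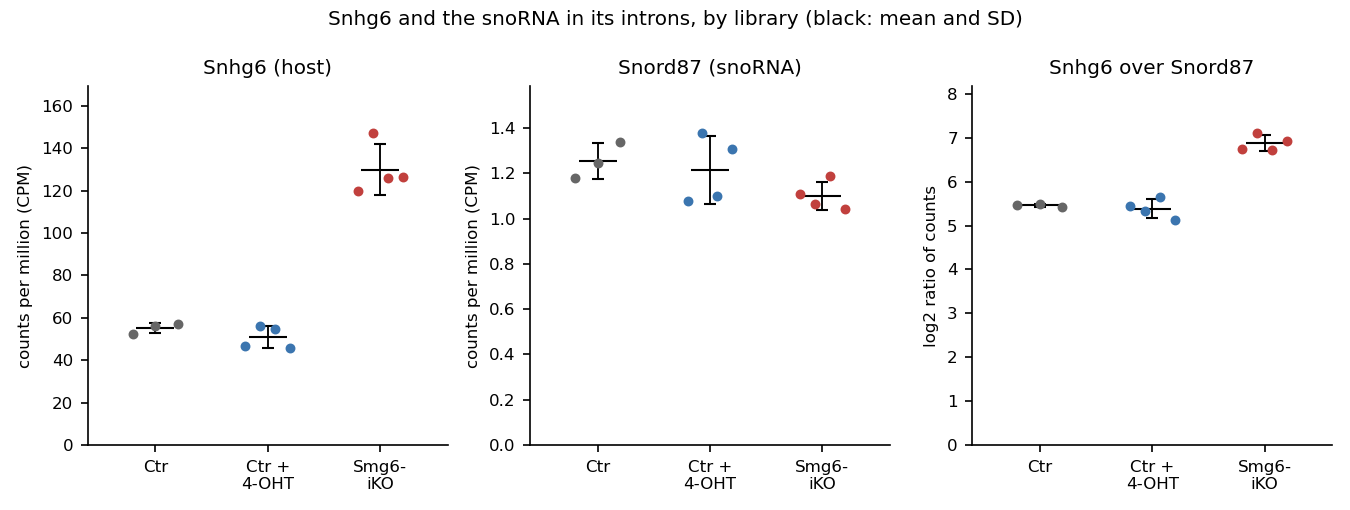
*Snhg6* in CPM (left), *Snord87* in CPM (middle) and the log2 ratio of their counts (right) in each library of Ctr (grey), Ctr + 4-OHT (blue) and *Smg6*-iKO (red), with black lines for the mean and SD. *Snhg6* and the ratio are higher in all 4 *Smg6*-iKO libraries, while *Snord87* overlaps among the 3 groups.

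*Snora73b* was abundant, with 1629, 2184 and 2157 counts in Ctr, 1988, 2094, 2205 and 1514 in Ctr + 4-OHT, and 2385, 1680, 2387 and 2630 in *Smg6*-iKO. It lies in an intron of both *Snhg3* and *Rcc1*, and 77.6% of its relative *Snora73a* lies under *Snhg3* exon. The log2 fold change of *Snora73b* was 0.12 ± 0.14 relative to Ctr + 4-OHT (edgeR adjusted p = 0.717) and 0.11 ± 0.14 against Ctr (adjusted p = 0.655), in overlapping groups. With the replicate block it was 0.15 ± 0.057 (adjusted p = 0.0773), and with the block and a gene length correction 0.25 ± 0.053 (adjusted p = 0.00539), which was called. The log2 ratio of *Snhg3* to the 2 snoRNAs differed by -0.18 against Ctr + 4-OHT (exact permutation p = 0.371) and by -0.28 against Ctr (unpaired exact p = 0.143).

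Genes that start beside an Snhg gene on the opposite strand did not pass the test. *Slc3a2*, the heavy chain of amino acid transporters, starts 106 bases from *Snhg1* on the opposite strand and averaged 288 ± 14.7 CPM (SD) in Ctr, 299 ± 46.4 in Ctr + 4-OHT and 296 ± 20.5 in *Smg6*-iKO. *Sema5a*, an axon guidance gene, starts 148 bases from *Snhg18* and averaged 23.0 ± 0.648, 24.3 ± 1.797 and 23.2 ± 2.72 CPM. The log2 fold changes against Ctr + 4-OHT were -0.0051 ± 0.10 for *Slc3a2* (edgeR adjusted p = 0.987) and -0.055 ± 0.095 for *Sema5a* (adjusted p = 0.823), neither passing the test.

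Of the 4 other genes with an Snhg number (*Snhg9*, *Snhg10*, *Snhg14* and *Snhg20*), 0 were called against Ctr + 4-OHT. *Snhg10* (log2 fold change 0.44 ± 0.14, edgeR adjusted p = 0.147) and *Snhg14* (0.30 ± 0.11, adjusted p = 0.221), the long imprinted host of the Snord115 and Snord116 clusters, did not overlap with Ctr + 4-OHT, and *Snhg14* rose against Ctr (0.33 ± 0.069, adjusted p = 0.0189). This *Snhg14* call was lost in 5 of 18 alternatives, with all libraries in 1 fit (adjusted p = 0.137), with DESeq2 on all libraries (0.0770) and without SMH_128 or SMH_133 of Ctr or SMH_133 of *Smg6*-iKO (up to 0.0722). *Snhg20* (0.056 ± 0.088) and *Snhg9* (-0.10 ± 0.20, 7 to 21 counts per library) stayed within about 1 SE of 0. A further 5 non-coding hosts, picked with earlier results of these data known, all rose in both comparisons, so that their count describes the choice (0.757% and 4.27% of all genes rose). They ranged from *Gas5* (1.27 ± 0.096 against Ctr + 4-OHT, 1.098 ± 0.065 against Ctr) to *Zfas1* (2.33 ± 0.094 and 2.19 ± 0.075), so that *Snhg12* was above *Gas5* and below *Zfas1*.

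Over all hosts of the annotation, 6 of 252 tested protein-coding hosts outside the 10 genes rose against Ctr + 4-OHT (2.38%) and 6 of 30 other hosts (20%). The share of all genes rising there was 0.757%. Against Ctr 13 of 252 protein-coding hosts rose (5.16%) and 16 fell, and 9 of 32 other hosts rose (28.1%) and 0 fell, where 4.27% of all genes rose and 4.98% fell. The median log2 fold change against Ctr + 4-OHT was -0.013 in the protein-coding hosts and 0.071 in the others, against 0.78 in the 10 Snhg genes. The 5 non-coding hosts picked above are counted again among the other hosts, and all 5 are among those that rose in each comparison.

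The genes most like each member were read from the root mean square difference of log2 CPM, centred on the Ctr mean, over 11 libraries. *Gas5* was nearest to *Snhg1* (0.056), *Snhg6* (0.093), *Snhg8* (0.11) and *Snhg5* (0.13), and *2410006H16Rik* to *Snhg12* (0.074). The second nearest were other non-coding transcripts for *Snhg12* (*Epb41l4aos*, 0.21) and *Snhg1* (*Gm16973*, 0.18), the ribosomal protein gene *Rps12* for *Snhg5* (0.13) and *Snhg8* (0.18), and *Aox1* for *Snhg6* (0.17). The members with smaller changes had protein-coding nearest genes, *Syne1* for *Snhg11* (0.11), *Ift172* for *Snhg17* (0.070), *Dglucy* for *Snhg15* (0.14), *Msto1* for *Snhg3* (0.054) and *Setbp1* for *Snhg18* (0.11). For genes that hardly moved, the measure compares little more than noise between libraries.

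Genes for proteins that act in RNA decay or assemble on snoRNAs were also examined. Of 10 NMD factors, 3 rose against Ctr + 4-OHT, *Smg9* (log2 fold change 0.36 ± 0.068), *Smg5* (0.32 ± 0.052) and *Smg1* (0.30 ± 0.055), with edgeR adjusted p of 0.0363, 0.0202 and 0.0358, and 0 fell, where 0.757% of all genes rose. These calls were not stable. *Smg9* lost its call whichever library was left out (adjusted p = 0.0540 to 0.138), *Smg1* in 7 of these 8 cases (up to 0.135) and with the gene length correction (0.0519), and *Smg5* in 5 of 8 (up to 0.0960). Against Ctr *Smg5* (0.43 ± 0.060) and *Smg9* (0.28 ± 0.075) rose, where 4.27% of all genes did, and *Smg9* lost this call in 5 of 7 cases with 1 library left out (up to 0.163). Those that rose against Ctr with the replicate block included *Upf1* (0.22 ± 0.058, adjusted p = 0.0124) and *Smg1* (0.15 ± 0.050, adjusted p = 0.0346) besides *Smg5* and *Smg9*, and *Smg6* fell, where 10.3% of all genes rose and 11.2% fell.

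The 5 box C/D and 4 box H/ACA core proteins and 11 snoRNP assembly and debranching factors had 0 edgeR calls against Ctr + 4-OHT, where 1.17% of all genes were called. Against Ctr *Nhp2*, an H/ACA core protein, fell by 0.46 on the log2 scale (SE 0.083, adjusted p = 0.00958). Its log2 fold change was -0.35 ± 0.096 between the control groups (Ctr + 4-OHT against Ctr, edgeR adjusted p = 0.351). Against Ctr + 4-OHT it was -0.11 ± 0.076 (adjusted p = 0.518). With the replicate block 3 of the 4 H/ACA proteins fell, *Nhp2*, *Dkc1* (-0.20 ± 0.054, adjusted p = 0.0149) and *Nop10* (-0.21 ± 0.056, adjusted p = 0.0135), and 1 of the 5 C/D proteins rose, *Nop56* (0.18 ± 0.048, adjusted p = 0.0128), against 11.2% of all genes falling and 10.3% rising in that fit. Of 7 factors of 5′ to 3′ decay and the exosome, 0 were called in either comparison or with the block, where 1.17%, 9.25% and, with the block, 10.3% (higher) and 11.2% (lower) of all genes were.

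Markers of cell state also differed from Ctr. Of the 8 neural stem cell markers, 5 fell against Ctr, where 4.98% of all genes fell, and 0 against Ctr + 4-OHT, where 0.416% did. The median log2 fold change of the 8 was -0.30 against Ctr, -0.14 against Ctr + 4-OHT and -0.25 between the control groups. *Hes5* (log2 fold change -1.28 ± 0.16 against Ctr, edgeR adjusted p = 0.00186) kept its call in all 18 alternatives, while *Sox2* and *Sox1* lost theirs in 4 of 18 each (adjusted p up to 0.0911 and 0.134) and *Pax6* in 3 of 18 (up to 0.0672). The fifth, *Fabp7* (-0.29 ± 0.070, adjusted p = 0.0301), also lost its call with 1 library left out (up to 0.103). *Hes5* stood at -0.69 ± 0.15 against Ctr + 4-OHT (edgeR adjusted p = 0.0647) and at -0.59 ± 0.18 between the control groups (adjusted p = 0.401). With the replicate block 6 of 8 fell, *Sox9* being added (adjusted p = 0.0181), where 11.2% of all genes fell. Of 4 astrocyte markers, *Gfap* rose against Ctr (1.33 ± 0.32, adjusted p = 0.0288) although the groups overlapped, and this call was lost in 5 of 18 alternatives, among them all libraries in 1 fit (0.284) and DESeq2 on all libraries (0.304). *Aldh1l1* (-0.12 ± 0.062), *Aqp4* (0.11 ± 0.19) and *S100b* (0.56 ± 0.37) did not pass the test, and *S100b* rose with the block (0.74 ± 0.17, adjusted p = 0.00529). The block also called 3 of 5 tested oligodendrocyte lineage markers and 1 of 4 fibroblast markers higher, where 10.3% of all genes were. Whether these culture differences bear on the Snhg values was not tested.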

How the data were processed

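Per the labels and the study's methods, total RNA (RNeasy, ribosomal RNA removed, stranded kit) of 11 NPC cultures was sequenced, in single reads. The authors aligned the reads with STAR 2.5.4b to GRCm38 and deposited raw counts per Ensembl 92 gene from featureCounts 1.5.0, stranded, leaving out reads that mapped to several places or overlapped several genes. Most snoRNAs within annotated host exons can therefore hold no counts. Groups came from the labels. The 10 genes and all lists were chosen with earlier results of these data known.

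Counts of 53801 genes were filtered (filterByExpr), scaled by TMM and tested with edgeR 4.0.16 (R 4.3.3) by the quasi-likelihood F test, each comparison on its own 2 groups, with Benjamini-Hochberg adjustment over all genes and a threshold of 0.05. An SE was obtained from each fold change and its F statistic (|log2 fold change|/√F). CPM were scaled by TMM over all 11 libraries, and log2 CPM used a prior count of 2. The study itself used DESeq2, which is an alternative here (DESeq2 1.42.0), as is limma-voom (limma 3.58.1). The host to snoRNA ratios were compared by exact permutation tests, which did not use the pairing of cultures. Other alternatives were the scaling, the filter, all libraries in 1 fit, a gene length correction, the replicate block and leaving out each library. The code was tested on simulated data. Exon positions, transcripts and snoRNAs came from GENCODE M21 (GRCm38), in which 52142 of the 53801 genes had the same coordinates, and start windows from RefSeq. Python 3.11.15 and pandas 2.3.3 were used for tables.

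Named besides the 10 genes were their snoRNAs with at least 10 counts in every library, other numbered Snhg genes, 5 other hosts, genes starting within 1000 bases on the opposite strand, *Smg6* and *Esr1*, genes of the lists called in a comparison with *Smg6*-iKO (at most 4 a list) and the 2 genes nearest to each member. The list genes given only with the replicate block, *Fabp7* and the other astrocyte markers were chosen after their values were seen. The result of 1 listed gene is not reported here.

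Ctr and *Smg6*-iKO share cultures SMH_128, SMH_132 and SMH_133, taken as the same embryos since number and genotype match in the labels. After removal of each group's mean, same-numbered libraries correlated over genes (r = 0.328, 0.399 and 0.425) and no other pair above 0.0948, so they were treated as pairs in the replicate block. Libraries of 1 group differed beyond counting noise (chi-square per gene at least 11.0), so none was a repeat of another. P-values measure the spread between these cultures. Depth was 26418249 to 33756875 counts, which gives few counts for *Snhg18* and *Snord87*.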

Additional observations from a re-analysis of the deposited data

Results flagged for a closer look

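Of 52 groups of 4 libraries examined (the 10 Snhg genes, the other named hosts, their neighbours and snoRNAs), 4 held 1 value far from the other 3, and chance alone gives about 1 in 20. *Snhg11* in Ctr + 4-OHT was at 85.1 CPM in culture SMH_126 against 55.8 to 60.3 CPM in the other 3, which bears on its comparison with *Smg6*-iKO given in the report. *Snhg12* in *Smg6*-iKO was at 138 CPM in culture SMH_128 against 116 to 119 CPM, and without that culture *Snhg12* still rose, by 1.55 (Ctr + 4-OHT) and 1.41 (Ctr) on the log2 scale. *Snhg18* in *Smg6*-iKO was at 3.18 CPM in culture SMH_127 against 2.12 to 2.24 CPM, and without that culture the value relative to Ctr + 4-OHT was -0.16 on the log2 scale. *Snhg9*, which is outside the 10 genes, was at 0.431 CPM in culture SMH_132 against 0.601 to 0.623 CPM.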

How the results depend on the processing

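The number of Snhg genes called was 5 to 7 of 10 under all 17 alternatives against Ctr + 4-OHT, 5 to 8 of 10 under 18 alternatives against Ctr, and 0 under 16 alternatives between the control groups. *Snhg12*, *Snhg6*, *Snhg1*, *Snhg8* and *Snhg5* passed the test under every alternative in both comparisons with *Smg6*-iKO. Against Ctr, *Snhg11* lost its call with all 11 libraries in 1 fit (adjusted p = 0.170) and with DESeq2 on all 11 (0.117), and *Snhg15* gained one under upper-quartile normalization (0.0377), without a filter (0.000691), with 10 counts in every library (0.0483), with length correction (0.0404) and with DESeq2 on 2 groups (0.0204). *Snhg17* gained a call without a filter in both comparisons with *Smg6*-iKO (0.0304 and 0.0347), and against Ctr + 4-OHT also in 1 fit (0.0461) and with DESeq2 on all libraries (0.00506), where *Snhg11* gained one without a filter (0.0442) and with DESeq2 on all libraries (0.0350). The replicate block added *Snhg15* and *Snhg17* and changed no other call among the 10 genes. With the block and a gene length correction 1 snoRNA, *Snora73b*, was called against Ctr (adjusted p = 0.00539).

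The number of all genes called moved more. Against Ctr + 4-OHT it was 206, then 418 without a filter, 484 with all libraries in 1 fit, 880 and 1131 with DESeq2 on 2 groups and on all, and 66 to 174 with 1 library left out. Against Ctr it was 1663, then 2714 without a filter, 796 in 1 fit and 3854 with the replicate block, 3656 with block and length correction, and 570 to 2524 with 1 library left out. Upper-quartile normalization split the calls against Ctr into 1089 higher and 694 lower, in place of 767 and 896. Between the controls it was 39, then 198 without a filter, 60 in 1 fit, 168 and 238 with DESeq2, and 5 to 54 with 1 library left out. The cause was not tested.

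Signs turned in the following log2 fold changes, none of which passed the test in the report. *Snhg18* against Ctr + 4-OHT gave 0.016 with upper-quartile normalization, 0.0034 with 10 counts in every library, 0.0066 with length correction and 0.0062 with limma-voom, and -0.16 to 0.082 with 1 library left out. Against Ctr it gave 0.033 with upper-quartile normalization, 0.0083 without a filter, 0.014 with 10 counts and 0.021 with length correction, and -0.16 to 0.086 with 1 library left out. Between the controls it gave -0.0047 with limma-voom and -0.070 to 0.13. *Slc3a2* against Ctr + 4-OHT gave 0.011 with upper-quartile normalization and 0.0062 with limma-voom, and -0.089 to 0.065 with 1 library left out, and against Ctr -0.0054 to 0.083. *Sema5a* gave -0.11 to 0.017 against Ctr + 4-OHT, and against Ctr -0.014 with length correction, -0.046 with the replicate block, -0.057 with both, and -0.042 to 0.089 with 1 library left out. With 1 library left out, *Snhg20* gave -0.0017 to 0.12 and -0.013 to 0.099, *Snhg9* against Ctr -0.12 to 0.34, and *Snora73b* against Ctr -0.019 to 0.25. Between the controls, *Snhg5* gave -0.073 to 0.043, *Snhg8* 0.015 with length correction and -0.12 to 0.025, *Snhg11* -0.22 to 0.024, and the *Snhg6* to *Snord87* log2 ratio -0.16 to 0.013. Against *Smg6*-iKO that ratio differed by 1.41 to 1.58 (Ctr + 4-OHT) and 1.34 to 1.47 (Ctr), and by 1.46 with the replicate block. It had no value with at least 30 snoRNA counts.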

Other observations

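A few snoRNAs not fully under host exons had scattered counts that entered no comparison. *Snora73a* in *Snhg3* had 3 to 10 counts per library, *Gm25129* in *Snhg11* had 1 to 9, and *Snord123* in *Snhg18* had 0 to 8. *Snora16a* in *Snhg12* is annotated as 2 overlapping genes, 1 of which had 0 to 2 counts per library and the other 0 in all 11. No hypothesis was tested on these values.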
